A study of Homo sapiens with 4 samples.

Results

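Integrin and laminin mRNAs were taken as a listed set of 35 genes, 17 integrin alpha chains, 8 integrin beta chains and 10 laminin chains, among 20033 protein-coding genes. An IGF2BP3 RIP peak was given to a gene when its summit, the base of highest signal, lay in an exon of that gene in GENCODE release 44 on hg38. In the first RIP replicate 71 of 44622 peaks met this rule for the set, and in the second 64 of 42723 did, a mean of 67.5 ± 4.95 (SD, n = 2). Of the 35 genes, 12 had a peak in at least 1 replicate and 23 had none in either.

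The study looked at RNA bound by IGF2BP3, an RNA-binding protein that reads N6-methyladenosine (m6A), in adenocarcinoma of the esophagogastric junction. OE-19 cells, an established line from such a tumor, for which the labels name no treatment or genetic change, were lysed, and RNA pulled down with an anti-IGF2BP3 antibody was sequenced in 2 replicates. Matched input libraries without antibody, also 2, are not analysed here, and no group was tested against another. Every fold and q below is the peak caller's own, and the control library it used is not stated. The sample labels give fixation with ultraviolet light before lysis, a step that the methods of the study do not describe for RIP. OE-19 is a single line, and the labels do not say whether the replicates were separate cultures.

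Integrins are receptors made of an alpha and a beta chain that span the plasma membrane and fasten cells to the extracellular matrix. The alpha chain largely decides the ligand, which may be collagen, laminin or a protein carrying the RGD motif, and the cytoplasmic tails are coupled to actin through talin and kindlin or, for the beta4 chain, to keratin filaments at hemidesmosomes. Laminins are secreted cross-shaped trimers of an alpha, a beta and a gamma chain that build the basement membrane beneath epithelia.

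Fold here is the caller's RIP signal at the summit over its local background, and q is its p-value adjusted across the genome. The lists reach down to a p of 0.01, with no limit on q. The methods of the study give MACS2 default settings, which set a limit on q, so these lists hold weaker peaks than that description would give. The overlapping pairs of peaks with the highest mean fold lay in coding exons, and the hg38 reference sequence under them is shown because the results below turn on these places. Each line gives the exon part covered by the peaks, 5′ to 3′ on the mRNA strand, with capitals for the 5 nt on either side of each replicate's summit. The first 6 are, for each gene with an overlapping coding pair, the pair with the highest mean fold.
ITGA2 exon 24, chr5:53078772-53078874, plus strand: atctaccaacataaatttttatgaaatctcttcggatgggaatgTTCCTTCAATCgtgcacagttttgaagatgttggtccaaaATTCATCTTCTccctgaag
LAMA3 exon 73, chr18:23951684-23951777, plus strand: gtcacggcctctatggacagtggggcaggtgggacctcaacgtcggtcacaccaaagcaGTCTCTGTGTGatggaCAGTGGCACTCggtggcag
ITGAV exon 16, chr2:186654665-186654708, plus strand: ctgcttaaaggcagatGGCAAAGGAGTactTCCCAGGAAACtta
ITGB4 exon 34, chr17:75754605-75754670, plus strand: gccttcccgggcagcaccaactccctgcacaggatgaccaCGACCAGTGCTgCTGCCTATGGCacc
ITGB6 exon 13, chr2:160112121-160112199, minus strand: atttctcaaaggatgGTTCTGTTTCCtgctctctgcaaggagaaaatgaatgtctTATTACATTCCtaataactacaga
LAMB1 exon 5, chr7:107994887-107994960, minus strand: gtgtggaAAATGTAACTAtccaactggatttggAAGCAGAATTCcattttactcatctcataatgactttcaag
The last pair had a peak with a caller's q of at most 0.05 in 1 replicate and no overlapping peak in the other.
ITGB6 exon 12, chr2:160123817-160123888, minus strand: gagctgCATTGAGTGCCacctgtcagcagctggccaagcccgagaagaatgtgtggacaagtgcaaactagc
ITGA2 exon 14, chr5:53064912-53065111, plus strand: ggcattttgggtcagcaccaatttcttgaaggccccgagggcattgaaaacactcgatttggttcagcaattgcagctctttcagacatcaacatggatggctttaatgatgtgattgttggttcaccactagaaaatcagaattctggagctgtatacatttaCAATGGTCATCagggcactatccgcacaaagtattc
These 8 stretches hold 732 bases in all, and their GC content ran from 35.1% in LAMB1 exon 5 to 65.2% in ITGB4 exon 34. The pentamer TGGAC, the DNA form of the sequence the study names for IGF2BP3, was present in 2 of them, 2 copies in LAMA3 exon 73 and 1 in ITGB6 exon 12.

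The share of integrin and laminin genes with a peak was near that of all protein-coding genes. In replicate 1, 10 members had an exonic peak, 28.6% against 32.6% of all protein-coding genes. In replicate 2, 12 members had one, 34.3% against 31.7%. The 10 members of replicate 1 all had a peak in replicate 2 as well, which put 28.6% of members against 28.0% of protein-coding genes on the list of both replicates. Integrin and laminin mRNAs are long, however, and long mRNAs carry more peaks, with a median of 8.50 in genes with a CDS of at least 2000 nt and a peak in both against 5.0 in all genes with a peak in both. Among the 5202 protein-coding genes with a coding sequence (CDS) of at least 2000 nt, a group that holds every member, 48.1% had a peak in both replicates, above the 28.6% of the set.

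Under stricter rules the share was again near that of all protein-coding genes and below that of genes with the long CDS. Exonic peaks of both replicates overlapped by at least 1 bp in 7 members, ITGA2, ITGAV, ITGB6, LAMA3, LAMB1, ITGA5 and ITGB4, which is 20.0% of members against 23.0% of protein-coding genes and 41.2% of those with the long CDS. A peak with a q of at most 0.05 in either replicate was present in 3 members, ITGA2, ITGAV and ITGB6. This was 8.57% of members against 10.3% of protein-coding genes and 22.7% of those with the long CDS. Per kb of canonical mRNA, the 1 reference transcript that Ensembl marks for each gene, the set carried 0.307 summits in replicate 1 and 0.289 in replicate 2, a mean of 0.298 ± 0.0128 (SD, n = 2). The same density was 0.562 ± 0.0145 over all protein-coding genes and 0.841 ± 0.0155 over those with the long CDS. The difference from the set exceeded the spread between the replicates, which does not measure variation between genes. The density of the set includes its members without a peak. Among genes with a peak in both replicates it was 1.01 ± 0.0775 for the 10 members and 1.34 ± 0.0276 for protein-coding genes.

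**Figure D1:**
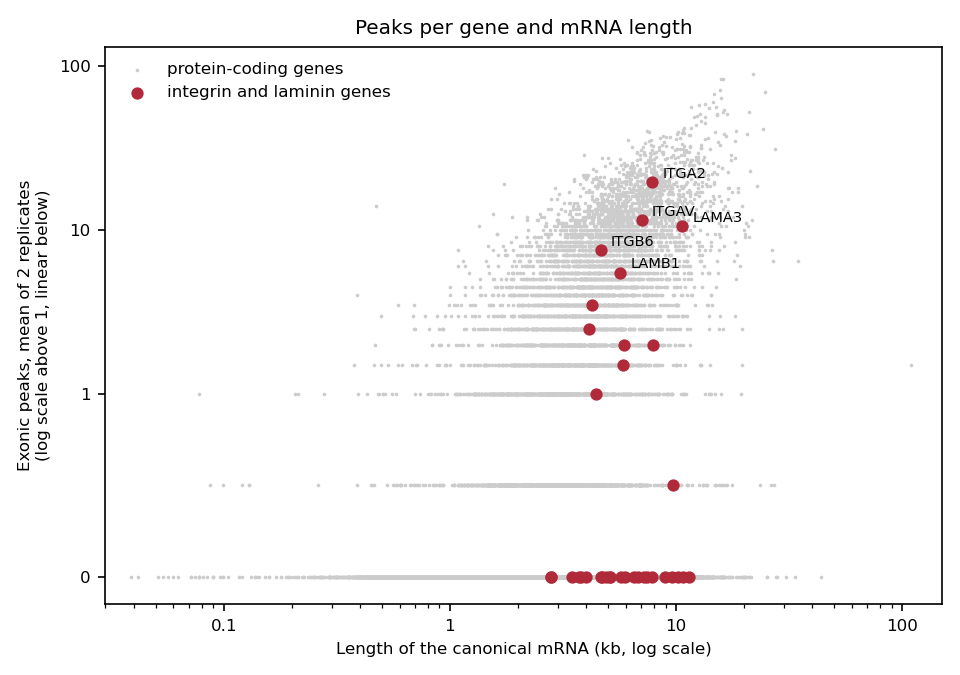
Exonic peaks per gene, as the mean of both RIP replicates, against the length of the canonical mRNA in kb, with the integrin and laminin genes as large dots over all protein-coding genes; the y axis is linear below 1. ITGA2, ITGAV, LAMA3, ITGB6 and LAMB1 stand above the other members, and 23 members lie at 0.

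Peaks were concentrated on a few members. ITGA2, ITGAV, LAMA3, ITGB6 and LAMB1, the 5 with the most peaks, held 59 of 71 peaks in replicate 1 and 50 of 64 in replicate 2, together 109 of 135 or 80.7%. The count per gene was close in the replicates, with a Pearson r of 0.969 and a Spearman rho of 0.851 across the 12 members with a peak. The highest fold per gene was less alike, with r of 0.529 and rho of 0.588 on the log2 scale across the 10 members with a peak in both. The highest peak of a gene need not lie at the same place in both replicates. These correlations describe genes that share the same libraries, and genes are not replicates.

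**Figure D2:**
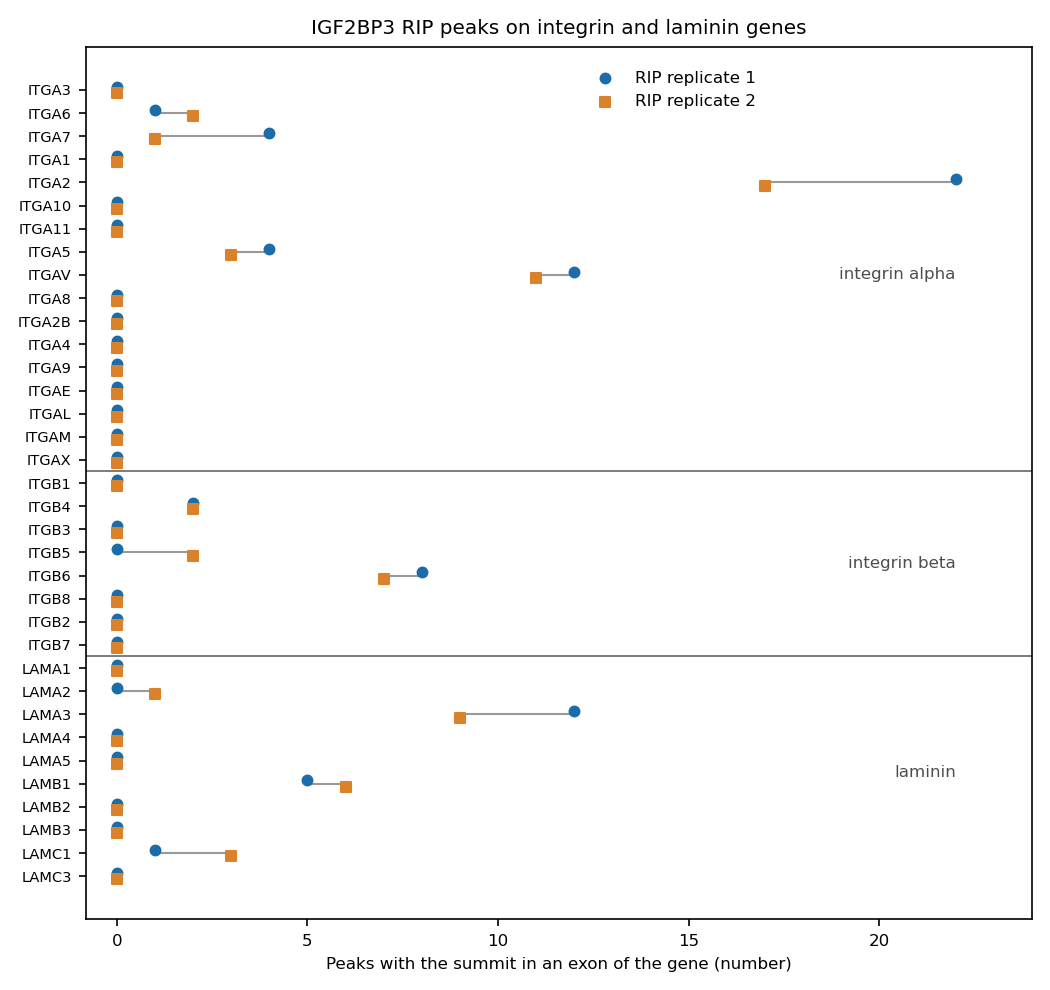
Number of peaks with the summit in an exon of each of the 35 genes, with a circle for RIP replicate 1 and a square for replicate 2, grouped into integrin alpha chains, integrin beta chains and laminins. ITGA2 had 22 and 17 peaks, ITGAV 12 and 11, LAMA3 12 and 9, and 23 genes had none.

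Of the 4 collagen-binding alpha chains, ITGA2 alone had a peak, and ITGA1, ITGA10 and ITGA11 had none. ITGA2 encodes the alpha2 chain, which pairs with beta1 as a collagen receptor of epithelial cells and platelets, and lies at chr5:52989340-53094779 on the plus strand. It carried 22 exonic peaks in replicate 1 and 17 in replicate 2, the most of any member, and its mean of 19.5 ± 3.54 stood at the 94.1 percentile of the 5619 protein-coding genes with a peak in both. Its density of 2.49 summits per kb of mRNA was the highest of the set and above that of 85.8% of those genes. Only 5523 of them have a canonical coding mRNA, and the others were counted as not below ITGA2. The highest fold was 4.29 in replicate 1 and 3.98 in replicate 2, a mean of 4.13 ± 0.221 (SD, n = 2) and the 69.1 percentile, so ITGA2 stood out more by the number of its peaks than by their height.

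The ITGA2 peaks ran along nearly the whole message. From 5′ to 3′ in replicate 1, the fold in the upstream exons was 2.41 in exon 2, 3.94 in exon 5, 2.16 in exon 6, 3.08 in exon 10, 3.57 in exon 13, 2.27 in exon 15 and 3.18 in exon 16. Further downstream it was 3.18 in exon 17, 3.18 in exon 18, 3.17 in exon 19, 2.33 in exon 21, 2.56 in exon 22, 4.29 in exon 24, 3.27 in exon 26, 2.90 in exon 27 and 2.56 in exon 28. The long last exon, which holds the end of the CDS and the 3′ UTR, had 6 more replicate 1 peaks with folds of 3.15, 2.64, 2.52, 2.77, 2.72 and 2.52. The highest of these lay 720 nt past the stop codon and the farthest 3132 nt past it.

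In replicate 2, the ITGA2 fold was 3.09 in exon 3, 2.06 in exon 7, 2.15 in exon 10, 2.77 in exon 11, 2.36 in exon 13 and 3.98 in exon 14. Downstream it was 2.90 in exon 15, 3.47 in exon 18, 2.17 in exon 20, 2.14 in exon 21, 3.0 in exon 24, 2.43 in exon 25, 2.53 in exon 26, 2.21 in exon 28 and 2.73 in exon 29. The last exon had 2 peaks, with folds of 2.50 and 2.76 at 593 and 1579 nt past the stop codon. Exons with a summit numbered 17 in replicate 1 and 16 in replicate 2, with 9 in common, and 24 of the 30 exons had one in either.

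Peaks of the replicates overlapped at 9 places on ITGA2. At exon 13 the summits fell on the same base in codon 502, with a fold of 3.57 in replicate 1 and 2.36 in replicate 2. At exon 21 they again fell on the same base, in codon 862, with folds of 2.33 and 2.14. At exon 24 the summits lay 40 nt apart, in codons 959 and 972 of 1181, and the fold was 4.29 and 3.0. The caller's q for this last pair was 0.00427 in replicate 1 and 1.00 in replicate 2. The replicates thus put a peak at the same exon, and it passed the q threshold in only 1 of them. The reverse was seen at exon 14, where replicate 2 had its highest ITGA2 peak with a fold of 3.98 and a q of 0.0142, in codon 591, and replicate 1 had no peak.

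Of the 4 alpha chains that bind RGD ligands, ITGAV and ITGA5 had peaks, and ITGA8 and ITGA2B had none. ITGAV encodes the alphaV chain, the partner of beta1, beta3, beta5, beta6 and beta8 in receptors for vitronectin, fibronectin and latent TGF-beta, and lies at chr2:186590010-186680901 on the plus strand. It carried 12 and 11 peaks, a density of 1.63 summits per kb. Its highest fold was 4.06 in replicate 1 and 4.14 in replicate 2, a mean of 4.10 ± 0.0585 (SD, n = 2) at the 68.0 percentile of genes with a peak in both. The values came from different exons, exon 12 in replicate 1 and exon 16 in replicate 2, so the SD does not measure agreement at 1 place. The exon 12 summit also lies in an exon of another gene, named below.

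The ITGAV peaks began well inside the message, at exon 7 in replicate 1 and exon 12 in replicate 2. In replicate 1 the fold was 2.37 in exon 7, 2.37 in exon 9, 4.06 in exon 12, 2.67 in exon 13, 2.67 in exon 15, 2.84 in exon 16, 3.69 in exon 17, 2.66 in exon 19, 2.92 in exon 21, 3.07 in exon 24, 3.01 in exon 26 and 2.92 in exon 27. In replicate 2 it was 2.85 in exon 12, 4.14 in exon 16, 2.12 in exon 19, 3.71 in exon 20, 3.09 in exon 22 and 2.77 in exon 25. Toward the end of the message it was 3.24 in exon 27, 2.77 in exon 28 and 3.09 in exon 29 and then 2.06 and 2.12 in exon 30. All 12 replicate 1 summits lay in the CDS, and replicate 2 added 2 summits near the stop codon and 1 in the 3′ UTR.

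ITGAV peaks overlapped at 4 exons. At exon 16 the summits were 14 nt apart, in codons 519 and 514 of 1048, with a fold of 2.84 at a q of 0.297 in replicate 1 and 4.14 at a q of 0.0392 in replicate 2. At exon 12 they were 3 nt apart, with a fold of 4.06 and 2.85 at a q of 0.0663 and 0.912. The other pairs were in exon 27, with folds of 2.92 and 3.24, and exon 19, with 2.66 and 2.12. The exon 12 summits also lie in an exon of the gene ENSG00000227227, and overlaps were read without strand, so these reads cannot be assigned to ITGAV alone.

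ITGA5 encodes the alpha5 chain of the main fibronectin receptor and lies at chr12:54395261-54419266 on the minus strand. It had 4 peaks in replicate 1 and 3 in replicate 2, and its highest fold was 3.24 and 2.72, a mean of 2.98 ± 0.370 (SD, n = 2). The replicate 1 peaks were in exon 15 (fold 3.06), exon 17 (2.85), exon 28 (3.24) and the 3′ UTR of exon 30 (2.81). The replicate 2 peaks were in exon 2 (2.53), exon 25 (2.48) and the 3′ UTR of exon 30 (2.72). Within ITGA5 exons the 3′ UTR peaks alone overlapped, and their summits were 199 nt apart, the widest distance of any pair in the set. None of the ITGA5 peaks had a q of at most 0.05.

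Of the 3 alpha chains that bind laminin, ITGA6 and ITGA7 had peaks in each replicate, while ITGA3 had none. ITGA6 encodes the alpha6 chain, which joins beta4 in the hemidesmosome of epithelial cells, and had 1 peak in replicate 1 and 2 in replicate 2. Its highest fold was 2.29 and 3.15, a mean of 2.72 ± 0.605 (SD, n = 2), the lowest of the 10 members with a peak in both. The replicate 1 summit lay in the 3′ UTR, 580 nt past the stop codon. The replicate 2 summits lay in exon 22 with a fold of 2.57 and in exon 24 with 3.15, so no ITGA6 peak was found at the same place.

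ITGA7 encodes the alpha7 chain, best known from muscle, and had 4 exonic peaks in replicate 1 and 1 in replicate 2, with a highest fold of 3.36 and 2.90, a mean of 3.13 ± 0.329 (SD, n = 2). Of the 4 replicate 1 summits, 3 lay outside the exons of the canonical mRNA. A transcript annotated as retaining an intron, ITGA7-223, held 4 of the 5 exonic summits. The canonical mRNA held a replicate 1 summit in exon 24 with a fold of 3.23 and a replicate 2 summit in the 3′ UTR with a fold of 2.90. These peaks did not overlap each other, but each overlapped a peak of the other replicate whose summit lay in no ITGA7 exon.

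The alpha4 and alpha9 chains, which bind fibronectin and VCAM-1, had no peak (0 of 2), and neither had the 4 leukocyte alpha chains ITGAE, ITGAL, ITGAM and ITGAX or the leukocyte beta chains ITGB2 and ITGB7. A single ITGAE entry in replicate 1 had its summit in an ITGAE intron that is also an exon of HASPIN, and was not counted. ITGB1, the beta chain shared by most of the collagen, laminin and fibronectin receptors above, had no peak in either replicate. The lists hold only peaks above the caller's limit and neither read depth nor transcript level is known here, so a gene without a peak is a gene below that limit and not one shown to be unbound.

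Of the 4 beta chains that pair with alphaV, ITGB6 had peaks in each replicate, ITGB5 in replicate 2 alone, and ITGB3 and ITGB8 in neither. ITGB6 encodes the beta6 chain, restricted to epithelia and an activator of latent TGF-beta, and lies at chr2:160099667-160200313 on the minus strand. It carried 8 and 7 peaks on a message of 4641 nt, a density of 1.62 summits per kb that is next to that of ITGAV. The highest fold was 4.32 in replicate 1, the highest of any member peak, and 3.28 in replicate 2, a mean of 3.80 ± 0.730 (SD, n = 2). This SD was the largest of the members with a peak in both, although on a log scale ITGA6 was farther apart. The ITGB6 values came from different exons, exon 12 in replicate 1 and exon 10 in replicate 2.

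In replicate 1 the ITGB6 fold was 2.52 in exon 3, 2.83 in exon 5, 2.67 in exon 6, 2.29 in exon 8, 4.32 in exon 12 and 2.83 in exon 13, with 2 more peaks in exon 15 at folds of 2.41 near the stop codon and 2.16 in the 3′ UTR. In replicate 2 it was 1.94 in exon 1, 2.43 in exon 5, 3.03 in exon 7, 2.19 in exon 8, 3.28 in exon 10, 2.43 in exon 13 and 2.36 in exon 14. The peak of fold 4.32 in exon 12, at codon 632 of 788, had a q of 0.00282, the lowest of the set, and replicate 2 had no peak there. Overlapping peaks were in exon 8, where both summits fell in codon 367 with folds of 2.29 and 2.19, and in exon 13, where they were 40 nt apart with folds of 2.83 and 2.43. The summits in exons 3, 5, 6, 7 and 8 also lie in exons of the gene ENSG00000285155, and the lists do not tell which transcript these came from. ITGB5, the beta5 chain of a vitronectin receptor, had 2 replicate 2 peaks, with folds of 3.63 in exon 7 and 3.09 in exon 8.

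ITGB4, the beta4 chain of the hemidesmosome, had 2 peaks in each replicate and a highest fold of 2.99 and 2.64, a mean of 2.81 ± 0.250 (SD, n = 2). Both of these were the same place in exon 34, with summits 12 nt apart in codons 1465 and 1469 of 1822. The other peaks were in exon 17 in replicate 1, with a fold of 2.05, and in exon 38 in replicate 2, with 2.45. All 4 summits lay in the CDS.

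**Figure D3:**
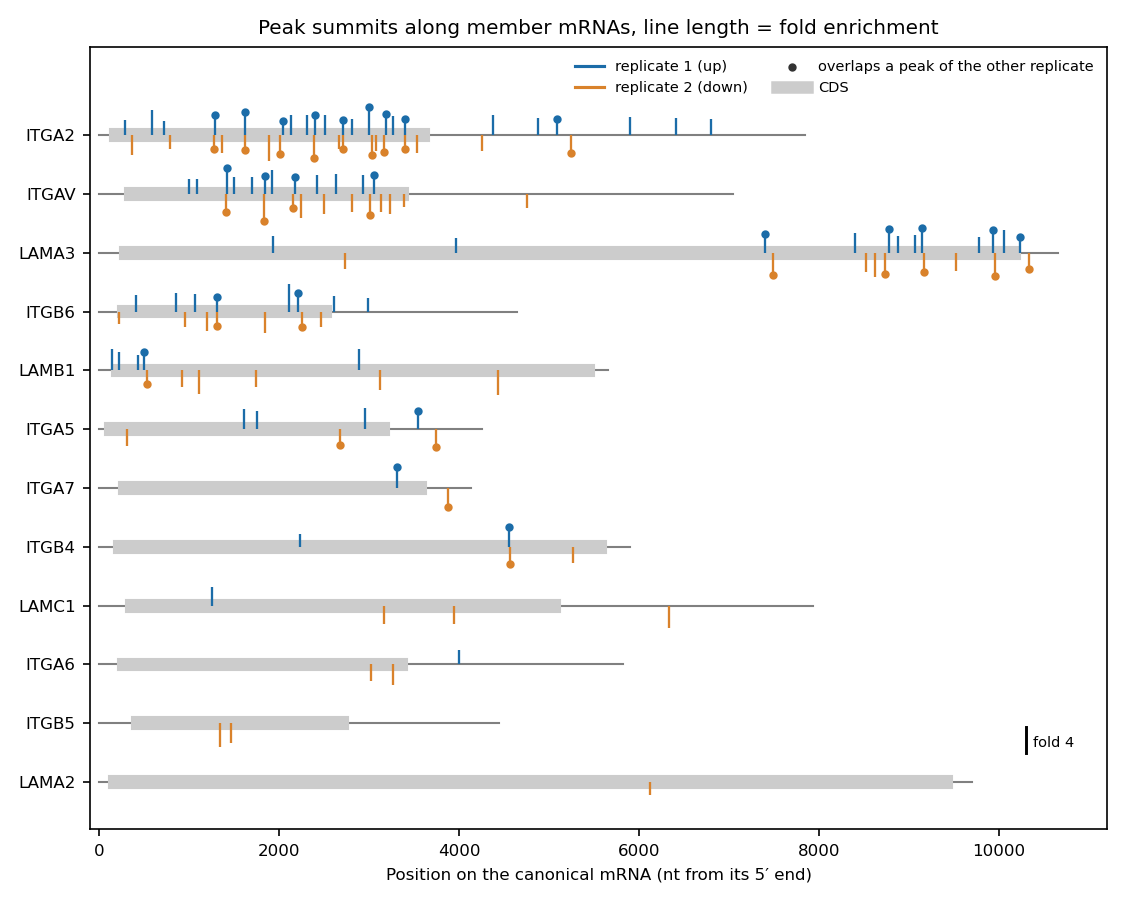
Peak summits along the canonical mRNA of the 12 members with a peak, in nt from the 5′ end, with lines up for RIP replicate 1 and down for replicate 2, line length as fold enrichment and the CDS as a thick bar. Summits on ITGA2 run along the message, those on LAMA3 gather toward the 3′ end of the CDS, and dots mark peaks that overlap a peak of the other replicate, exonic or not. The 3 ITGA7 summits outside canonical exons are not drawn.

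Among the laminins, 3 of 10 genes had a peak in both replicates, 1 for each kind of chain. LAMA3 encodes the alpha3 chain of laminin-332, the laminin that anchors epithelial hemidesmosomes, and lies at chr18:23689453-23956222 on the plus strand. It had 12 and 9 peaks, and its highest fold was 3.76 in replicate 1 and 3.81 in replicate 2, a mean of 3.79 ± 0.0410 (SD, n = 2). This SD was the smallest of the members with a peak in both. The values came from different exons, exon 68 in replicate 1 and exon 64 in replicate 2, so the SD does not measure agreement at 1 place. LAMB3, the beta chain of laminin-332, had no peak in either replicate.

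LAMA3 summits gathered toward the end of a very long message. The canonical mRNA LAMA3-202 has 75 exons and 10651 nt, and 10 of 12 replicate 1 summits and 8 of 9 replicate 2 summits lay in exon 56 or farther downstream. The fold in replicate 1 was 2.64 in exon 13, 2.36 in exon 31, 2.93 in exon 56, 3.10 in exon 62, 3.69 in exon 65 and 2.67 in exon 66. In the remaining exons it was 2.81 in exon 67, 3.76 in exon 68, 2.52 in exon 72, 3.46 in exon 73, 3.53 in exon 74 and 2.52 in exon 75. In replicate 2 it was 2.52 in exon 21, 3.41 in exon 56, 3.0 in exon 63, 3.81 in exon 64, 3.20 in exon 65, 2.91 in exon 68, 2.77 in exon 70, 3.53 in exon 73 and 2.50 in exon 75. Of the CDS summits of LAMA3, 72.7% and 75.0% lay in the last 20% of the CDS, against 21.8% and 21.3% over all mRNAs. The shorter coding transcript LAMA3-201, which starts at its own exon at position 23873020 and has 38 exons and 5618 nt, held 18 of the 21 summits, again 10 and 8. Peak positions cannot tell whether these came from the long or the short message.

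Overlapping LAMA3 peaks were in exons 56, 65, 68, 73 and 75. The pair in exon 73 had the highest mean, with a fold of 3.46 and 3.53 and summits 16 nt apart in codons 3236 and 3241 of 3333. At exon 65 the fold was 3.69 and 3.20, and at exon 68 it was 3.76 and 2.91. In exon 75 both summits lay just past the stop codon, 5 and 97 nt from it, with folds of 2.52 and 2.50. No LAMA3 peak passed a q of 0.05, the lowest being 0.0864 in replicate 2 at exon 64.

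LAMB1 encodes the beta1 chain found in many laminins and lies at chr7:107923799-108003213 on the minus strand. It had 5 and 6 peaks and a highest fold of 3.38 and 3.75, a mean of 3.57 ± 0.260 (SD, n = 2). The replicate 1 summits lay mostly at the 5′ end, with folds of 3.30 in exon 2, 2.81 in exon 3, 2.37 in exon 4, 2.83 in exon 5 and 3.38 in exon 21. The replicate 2 summits were spread farther, with folds of 2.12 in exon 5, 2.56 in exon 8, 3.57 in exon 9, 2.51 in exon 14, 3.02 in exon 22 and 3.75 in exon 28. Exon 5 alone had a peak in both, with summits 26 nt apart in codons 121 and 130. LAMC1, the gamma1 chain of many laminins, had 1 and 3 peaks with a highest fold of 2.95 and 3.40, a mean of 3.18 ± 0.320 (SD, n = 2), and none of these overlapped. LAMA2, the alpha chain of muscle laminin, had a single replicate 2 peak in exon 42 with a fold of 2.01. LAMA1, LAMA4, LAMA5, LAMB2, LAMB3 and LAMC3 had no peak.

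**Figure D4:**
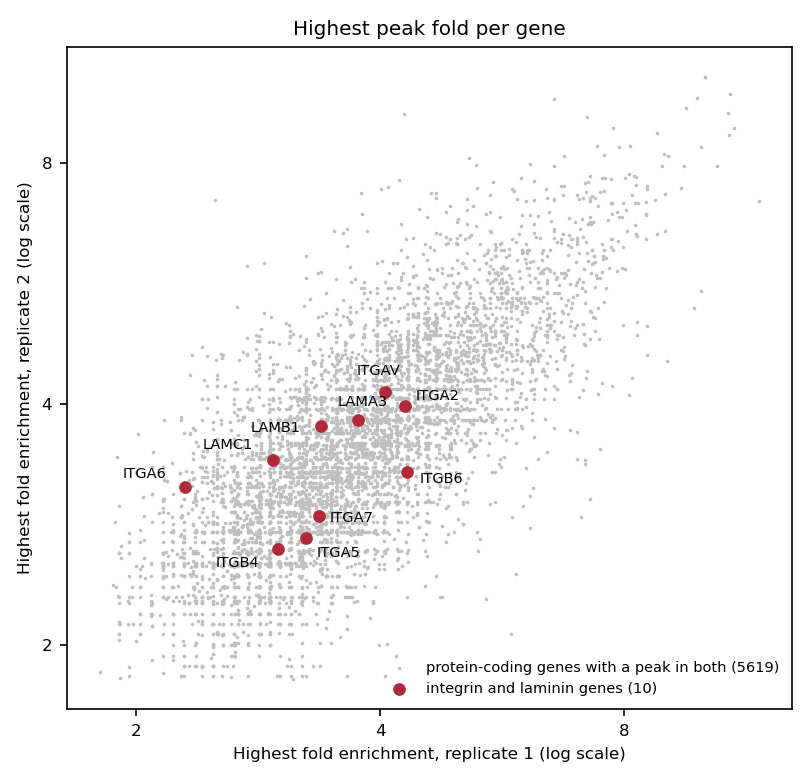
Highest fold enrichment per gene in RIP replicate 1 against replicate 2, both on log scales, with the 10 integrin and laminin genes with a peak in both over the 5619 protein-coding genes with one. The members lie within the body of the other genes, from ITGA6 at 2.29 and 3.15 to ITGA2 at 4.29 and 3.98.

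The member peaks were not among the highest of the lists. The median over the 10 members of the highest fold per gene was 3.37 in replicate 1 and 3.34 in replicate 2, against 3.64 and 3.51 for all 5619 genes with a peak in both and 3.96 and 3.78 for the 2502 of them with the long CDS. The highest member peak reached 4.32 and 4.14, while the highest exonic peak of any protein-coding gene reached 11.7 and 10.2. Over single peaks, the median fold was 2.83 and 2.77 for members and 2.95 and 2.93 for all exonic peaks of protein-coding genes. Member peaks were also narrower, with a median width of 89 and 87 bp against 115 and 109 bp.

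A smaller share of member peaks than of all exonic peaks was found again in the other replicate, by more than the spread between replicates. That spread is between 2 libraries and does not measure variation between genes or peaks. In each replicate 25 member peaks overlapped a peak of the other, 35.2% in replicate 1 and 39.1% in replicate 2, a mean of 37.1% ± 2.72 (SD, n = 2). Among all exonic peaks of protein-coding genes the mean was 62.9% ± 2.67. A q of 1 was given to 48 and 50 member peaks, 72.9% ± 7.44 against 63.2% ± 3.49 of all such peaks. A q of at most 0.05 was given to 2 peaks in each replicate, 2.97% ± 0.218 against 9.02% ± 1.70. Most member peaks thus passed the caller's p limit and did not pass its correction across the genome.

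Peaks that overlap must have summits near each other, so the distances within the 23 overlapping pairs are given as a description. The median distance between the summits of a pair was 21.0 nt, with a range of 0 to 199 nt, and 19 of 23 pairs were within 50 nt. The fold was higher in replicate 1 in 16 of the 23. Across the pairs the log2 fold correlated with a Pearson r of 0.367 and a Spearman rho of 0.434, a description over 23 places that share 2 libraries.

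Most summits lay in the CDS. Of the member summits on a canonical mRNA, 56 of 68 in replicate 1 and 52 of 64 in replicate 2 lay in the CDS more than 200 nt before the stop codon, a mean of 81.8% ± 0.780 (SD, n = 2). Over all mRNAs the share was 71.5% ± 1.16, and over those with the long CDS it was 81.5% ± 0.724, a difference from the set that is within the spread between the replicates. A window of 200 nt to each side of the stop codon held 3 and 6 summits or 6.89% ± 3.51, against 8.52% ± 0.183 over all mRNAs and 5.85% ± 0.214 over those with the long CDS, both within the spread between the replicates of the set. The 3′ UTR past it held 9 and 6 or 11.3% ± 2.73, against 16.2% ± 0.890 over all mRNAs and 9.96% ± 0.452 over those with the long CDS. No member summit lay in a 5′ UTR, where 3.72% ± 0.0874 of all mRNA summits and 2.65% ± 0.0583 of those on long-CDS mRNAs lay. With each member mRNA weighted by its number of summits, the CDS part made up 59.4% of the length and the 3′ UTR part 31.9%, against 81.8% and 11.3% of the summits. Over all mRNAs, weighted alike, the CDS made up 47.3% of the length and held 71.5% of the summits, so the excess in the CDS was not particular to the members.

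**Figure D5:**
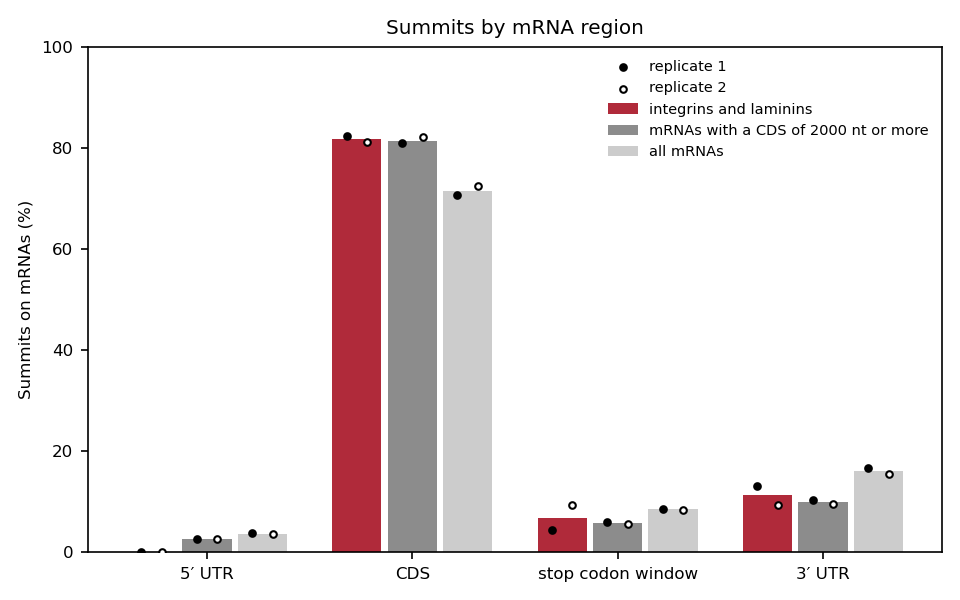
Share of summits, in percent of those on canonical mRNAs, by mRNA region, for the integrins and laminins, for mRNAs with a CDS of at least 2000 nt and for all mRNAs; bars are means of both RIP replicates, filled dots replicate 1 and open dots replicate 2. The CDS held 82.4% and 81.2% of member summits, close to the long-CDS mRNAs.

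The coding exons with a summit were mostly short. Of the CDS summits, 40 of 56 and 38 of 52 lay in exons under 150 nt, 72.3% ± 1.17 (SD, n = 2) against 50.9% ± 1.14 over all mRNAs. Integrin and laminin genes are built of many short exons, and with the same weights as above such exons made up 58.0% of the members' CDS length against 40.7% over all mRNAs. For the members and for all mRNAs alike, the share of summits in short exons was above this share of length. That excess was thus not particular to the members. Along the whole CDS up to the stop codon, the last 20% held 33.3% and 42.1% of member CDS summits, a mean of 37.7% ± 6.20 against 21.6% ± 0.342 over all mRNAs. Without LAMA3 the mean was 30.3% ± 9.07, a difference from all mRNAs of less than the spread between the replicates.

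TGGAC was found in the 101 nt centered on the summit in 13 of 68 windows in replicate 1 and 13 of 64 in replicate 2, a mean of 19.7% ± 0.845 (SD, n = 2) against 12.9% ± 0.0949 over all mRNA summits. The summits over all mRNAs were not matched to those of the members for mRNA region or GC content. Motifs were read on the mRNA strand alone. Of the 26 windows with TGGAC, LAMA3 held 6, ITGA2 and ITGAV 5 each, and ITGB6 and LAMB1 3 each, and windows of both replicates at the same place share their sequence. The core GGAC, which lies within TGGAC, was in 39.4% ± 1.69 of member windows and 32.0% ± 0.0719 of all. The m6A consensus DRACH, in which D is A, G or T, R is A or G and H is A, C or T, was in 91.0% ± 3.90 and 87.3% ± 0.288, and nearly every window of this length holds it. The member windows had a median GC content of 44.3% ± 0.350 against 48.0% ± 0.700.

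Peaks were also counted on the mRNAs of proteins that couple integrins to the cytoskeleton, from a separate list. The list was chosen with earlier results of these data known, so its shares only describe it. This holds for the lists below too. Of 24 adhesion adaptors and kinases, 19 had a peak in both replicates, 18 had overlapping peaks, and 5 had a q of at most 0.05 in either, PXN, TLN2, FERMT1, PARVA and KRIT1. A peak in both was thus present in 79.2% of the list, against 28.0% of all protein-coding genes and 48.1% of those with the long CDS. Overlapping peaks were present in 75.0%, against 23.0% and 41.2%. The share with a q of at most 0.05 was 20.8%, against 10.3% and 22.7%, which is near the share of the long-CDS genes. PXN encodes paxillin, a scaffold of focal adhesions, and had 13 and 10 peaks with a highest fold of 4.27 and 9.21. TLN2 encodes talin 2, which activates integrins through the beta tail, and had 51 and 46 peaks with a highest fold of 5.95 and 5.42. The median of the highest fold over the 19 genes was 3.52, against 3.37 for the members and 3.59 for all genes with a peak in both.

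Of 4 hemidesmosome genes outside the set, 2 had peaks in both replicates. DST, which encodes the plakin dystonin and its epithelial form BPAG1, had 68 and 70 peaks with a highest fold of 6.77 and 5.80. COL17A1, the transmembrane collagen BP180, had 13 and 14 peaks with 4.58 and 3.78. PLEC had 1 replicate 1 peak with a fold of 2.27, and CD151 none. Of 15 other basement membrane and matrix genes, 2 had peaks in each replicate, 13.3% against the same 28.0% and 48.1%. In this list 12 genes had no peak at all, among them FN1, COL4A1 and NID1. COL4A2, a chain of collagen IV, had 2 and 3 peaks with a highest fold of 2.34 and 4.60. DAG1, the laminin receptor dystroglycan, had 5 and 3 peaks with 2.64 and 4.17. HSPG2, which encodes perlecan, had 8 peaks in replicate 1 and 0 in replicate 2.

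Marker genes of the cell line's epithelial type were mostly without a peak as well, and a peak list gives no expression level. Of 6 epithelial markers, CDH1 alone had one, with 4 and 8 peaks, and EPCAM, ERBB2, KRT8, KRT18 and KRT19 had none, although keratins and EPCAM are typical of epithelial cells. Of 4 leukocyte markers, CD68 alone had peaks in both replicates, with 2 and 5, and every one of these summits also lay in an exon of the gene ENSG00000264772. Of 4 mesenchymal markers none had a peak in both, COL1A1 having 5 in replicate 2 alone, and of 3 endothelial markers none had any.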

How the data were processed

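RNA from 2 IGF2BP3 RIP replicates of OE-19 cells was analysed. Paired-end reads had been mapped to hg38 and peaks called with MACS2 for each library by the authors, whose methods name Tophat2 while the submitters' processing notes name fastp and HISAT2 (versions not given in the sources used here). The deposited peak lists give a fold (ratio of RIP signal to local background), −log10 p and −log10 q values, and a score that is the whole part of 10 times −log10 p. Which library served as control is not stated, and read depth is unknown.

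Summits were placed in merged GENCODE 44 exons without strand, and on the canonical coding transcript for region, codon and motif (Python 3.11.15, pandas 2.3.3, numpy 2.4.6). No peak lay past a chromosome end. Summit placement, mRNA regions and overlap were tested on simulated peaks, and the motif search was not. With 1 group of 2, no test was made, and values are given per replicate with the mean ± SD. This SD is the spread between the 2 libraries over the same genes, and it does not measure variation between genes or peaks. The input libraries, which carry no peak list here, were not used. By rule, values of every peak were given for members with a q of at most 0.05 and sentences of their own for the 10 members with a peak in both replicates. Peak values of the other members were added after they were seen. By the same rule the 2 genes with the highest mean fold were named for each other list. The members and lists were chosen with earlier results of these data known. Alternatives covered peak thresholds, gene assignment, overlap, transcript and windows.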

Additional observations from a re-analysis of the deposited data

Results flagged for a closer look

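Peaks with a summit in an intron of an integrin or laminin gene, and in no exon of any gene, lay outside the counts above and numbered 6, with 3 in each replicate, a total above the limit of 3 that a count of 0 allows, although neither replicate alone was above it and the total counts overlapping places in both. They were 4.05% and 4.48% of the exonic and intronic summits of the set, against 2.86% and 2.53% for all protein-coding genes, a difference that rests on 3 summits in each replicate. They fell in ITGA5, ITGA7 and ITGB5, and 5 of the 6 overlapped a peak in the opposite library. The ITGA7 peaks had folds of 2.90 in replicate 1 and of 3.03, 2.59 and 2.34 in replicate 2, the ITGA5 peak in replicate 1 had 2.58 and the ITGB5 peak in replicate 1 had 2.85, all with a q of 1.00.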

How the results depend on the processing

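No paired analysis was possible because both samples with a peak list belong to 1 group. Leaving out either replicate left the values between 64 and 71 peaks, 35.2% and 39.1% overlapping, 81.2% and 82.4% in the CDS, 4.41% and 9.38% in the stop codon window, a median highest fold of 3.34 and 3.37, 19.1% and 20.3% of windows with TGGAC, and 0.289 and 0.307 summits per kb.

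Each of the 3 limits on peaks moved the results for which it gave a value. At a q of at most 0.05 the means were 2 peaks, 1 member with a peak in both replicates, 0% overlapping, 100% in the CDS, 0% in the stop codon window, a median highest fold of 4.18, 25% with TGGAC and 0.00902 summits per kb. At a p of at most 1e-05 they were 3.50 peaks, 3 members, 0%, 100%, 0%, a fold of 4.09, 45.8% and 0.0158 per kb, and at a fold of at least 5 no member peak was left (0 peaks, 0 members, 0 per kb), so shares and medians had no value there. These limits leave too few peaks for a share to be read. Genes with a peak in both replicates at these limits were not counted over all protein-coding genes. The member counts therefore have no background beside them.

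Overlap of 50% of both peaks left 22.3% of peaks overlapping, and summits within 50 nt left 28.2%. A stop codon window of 100 nt held 3.03%. The CDS share was 82.6% on the transcript with the longest CDS and 85.8% among peaks that overlap the other replicate, whose density was 0.111 per kb. Summits anywhere in the gene body gave a median highest fold of 3.32. TGGAC was in 9.10% of windows of 25 nt on either side and in 37.0% of those of 100 nt. In alternatives chosen after seeing the data, leaving out LAMA3 gave 18.0% with TGGAC and 30.3% of CDS summits in the last 20% of the CDS, and leaving out ITGA2 gave 22.6% with TGGAC, 33.3% overlapping and 83.9% in the CDS. The other 18 of 51 values moved by less than 1 SD of the replicates or, for counts, by less than 1.5 times. With 2 replicates and no depth, genes below the caller's limit cannot be ranked.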
